A study of Mus musculus with 16 samples.

Results

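The 46 genes described here encode the mouse Wnt signalling system at the cell surface and its feedback loop: 18 Wnt ligands, 10 Frizzled receptors, 4 R-spondin agonists, 7 secreted antagonists, and 7 feedback genes and TCF/LEF factors. They were chosen by name and matched by Ensembl identifier, and they make up 46 of the 54838 genes in the count tables. All 46 were found and all 46 passed the filter on low counts, so each was tested. RNA was sequenced from mouse embryos at stage E10.5, from a Head part, taken anterior to the third branchial arches, and a Tail part, taken caudal to the forelimbs. For both parts the genotypes were Fuz KO, Gpr161 KO, the double knockout (DKO, lacking both Fuz and Gpr161) and wild type (WT), and the labels name no treatment protocol. This gives 8 groups of 2 libraries each, 16 in all. The strain, the form of the knockout alleles, and whether a library is 1 embryo or a pool are not given in the labels, so p-values measure the spread between these samples. Fuz is a planar cell polarity effector needed to build primary cilia. Gpr161 is a ciliary receptor that holds back Hedgehog signalling.

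Wnt ligands are lipid-modified secreted proteins that bind Frizzled receptors. In the canonical branch this stops the destruction complex, in which Axin proteins are scaffolds, and beta-catenin then acts with TCF/LEF factors on target genes. R-spondins raise the response by removing Znrf3 and Rnf43, the ubiquitin ligases that clear Frizzleds from the surface, and Axin2, Nkd1, Nkd2, Znrf3, Rnf43 and Notum are induced by the pathway and limit it. In the mid-gestation embryo Wnt ligands from the dorsal midline pattern the neural tube, Wnt ligands from the tail bud maintain axial progenitors, and others act in limb ectoderm, endoderm and kidney primordia. Levels are given on a linear scale as CPM, read counts divided by the TMM-adjusted library size and multiplied to a common total, for libraries 1 and 2 of a group in that order. Differences are log2 fold changes ± SE from edgeR's quasi-likelihood test, called at a Benjamini-Hochberg adjusted p under 0.05 over all 21284 genes tested. A call with no tool named is from that fit. Where libraries of 2 groups are said not to overlap, this is description only. Genes named for a call between the same libraries would rarely overlap.

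Library totals ran from 39062489 to 53680317 counts. Fuz was at 0.808 to 1.89 CPM in the 8 libraries lacking it, against 5.17 and 5.35 CPM in Tail WT and 6.82 and 7.84 CPM in Head WT, and Gpr161 was at 2.12 to 5.44 CPM in the 8 libraries lacking it, against 46.8 to 55 CPM in WT. The targeted genes were thus low in the libraries labelled as lacking them. The 8 Head marker genes summed to 121 to 270 CPM in Head libraries, against 10.9 to 67.3 CPM in Tail libraries, and the 9 Tail markers to 29.8 to 50.5 CPM in Head libraries, against 368 to 573 CPM in Tail libraries. Libraries 1 of Fuz KO and DKO stood apart: a 12-gene hypoxia and glycolysis list summed to 8020 to 10800 CPM in those 4 libraries, against 2630 to 5990 CPM in the other 12. Highest of those 12 was library 1 of Gpr161 KO, at 5990 CPM in Head and 5980 CPM in Tail, against 3810 and 3680 CPM in library 2. By Xist and Y-linked genes, all Fuz KO and DKO libraries were male, all WT libraries female, and in both parts library 1 of Gpr161 KO was male and library 2 female, so for Fuz KO and DKO against WT genotype and sex cannot be told apart. A term for sex in the fit rests only on library 1 against library 2 of Gpr161 KO. It therefore cannot be told apart from any other difference between those libraries.

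In Head Gpr161 KO embryos 9 of the 46 genes fell relative to Head WT and none rose by edgeR's test: 3 ligands (Wnt3, Wnt7a, Wnt7b), 1 Frizzled (Fzd10), 2 R-spondins (Rspo1, Rspo3) and 3 feedback genes (Axin2, Nkd1, Nkd2). The falls were between 0.67 and 3.08 on the log2 scale. The 9 are 19.6% of the 46 genes, whereas 2.02% of all genes tested were called in this comparison and 0.507% were called lower. The median log2 fold change was -0.40 over the 46 genes and 0.01 over all genes tested. An unadjusted p under 0.05 was reached by 21 of the 46, of which 7 were higher and 14 lower, against 12.9% of all genes. DESeq2 called 12, against 4.5% of all genes: the same 9, with Wnt2b (-1.44 ± 0.40, adjusted p = 0.0102) and Wnt9a (-0.89 ± 0.27, adjusted p = 0.0321) lower and Wnt11 (1.34 ± 0.37, adjusted p = 0.00968) higher. In bulk tissue, fewer cells of a type and less RNA per cell cannot be told apart.

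Among the ligands, Wnt7b, which with Wnt7a is needed for blood vessels to enter the neural tube, had the largest fall. It was at 5.3 and 10.3 CPM in Head Gpr161 KO, against 72.1 and 59.9 CPM in Head WT, a log2 fold change of -3.08 ± 0.44 (adjusted p = 0.00555). Head DKO had 54.7 and 44.2 CPM and Head Fuz KO 32.2 and 76.6 CPM, so both Head Gpr161 KO libraries lay below every other Head library. Wnt3, a canonical ligand required for gastrulation and later made in limb ectoderm and dorsal neural tube, was at 1.13 and 2.44 CPM in Head Gpr161 KO, against 11.5 and 9.55 CPM in Head WT (-2.55 ± 0.33, adjusted p = 0.00207). The Wnt3 level was 12.3 and 13.8 CPM in Head Fuz KO and 12.6 and 10.9 CPM in Head DKO, again with no overlap with the Head Gpr161 KO libraries. Wnt7a, the ligand of dorsal limb ectoderm, was at 3.1 and 4.7 CPM in Head Gpr161 KO, against 11.8 and 13.8 CPM in Head WT (-1.71 ± 0.23, adjusted p = 0.00265). Its levels in Head Fuz KO (25.1 and 17.2 CPM) and Head DKO (22.8 and 18.2 CPM) lay above both Head WT libraries, with log2 fold changes of 0.73 ± 0.22 and 0.69 ± 0.22 that did not pass the test (adjusted p = 0.6 and 0.957).

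The Frizzled that fell, Fzd10, is a receptor typical of the dorsal neural tube. It was at 28.3 and 31.9 CPM in Head Gpr161 KO, against 82.5 and 68.1 CPM in Head WT (-1.32 ± 0.14, adjusted p = 0.000628), while Head Fuz KO had 62.7 and 79 CPM and Head DKO 62.6 and 74.9 CPM. Of the other 9 Frizzleds none was called in Head Gpr161 KO, and 6 of the 10 had a log2 fold change above 0. The Frizzled fall was thus 1 gene of 10. Rspo1 and Rspo3 are secreted agonists that bind Lgr receptors. Rspo1 was at 6.13 and 5.87 CPM in Head Gpr161 KO, against 23.6 and 28.3 CPM in Head WT (-2.11 ± 0.23, adjusted p = 0.000628), and both Head DKO libraries (15.2 and 14.8 CPM) lay between these groups. Rspo3 was at 5.1 and 4.45 CPM in Head Gpr161 KO, against 21.1 and 13.8 CPM in Head WT (-1.87 ± 0.28, adjusted p = 0.00501). The Rspo2 level spanned 15.4 and 29.4 CPM in Head Gpr161 KO, against 25.5 and 24.9 CPM in Head WT, so these groups overlapped (-0.17 ± 0.42, adjusted p = 0.923).

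The 3 feedback genes that fell moved less. Axin2, a beta-catenin target that rebuilds the destruction complex, was at 40.9 and 45.4 CPM in Head Gpr161 KO, against 76.3 and 66.4 CPM in Head WT (-0.73 ± 0.14, adjusted p = 0.0163). Nkd1 and Nkd2 encode Dishevelled-binding inhibitors of the pathway. Nkd1 was at 48.3 and 51.6 CPM in Head Gpr161 KO, against 84.9 and 74.3 CPM in Head WT (-0.67 ± 0.15, adjusted p = 0.0352). Nkd2 was at 10.1 and 11.3 CPM in Head Gpr161 KO, against 29.3 and 26.4 CPM in Head WT (-1.38 ± 0.23, adjusted p = 0.007). For all 3 the Head Gpr161 KO and Head WT libraries did not overlap, which their call between these libraries made likely. Of the 4 others in this class, Lef1, the TCF/LEF partner of beta-catenin, was at 18.5 and 14.2 CPM in Head Gpr161 KO, against 23.3 and 25.3 CPM in Head WT (-0.57 ± 0.21, adjusted p = 0.239), and the log2 fold changes were -0.17 for Tcf7, 0.06 for Znrf3 and -0.32 for Rnf43, none of them called.

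**Figure D1:**
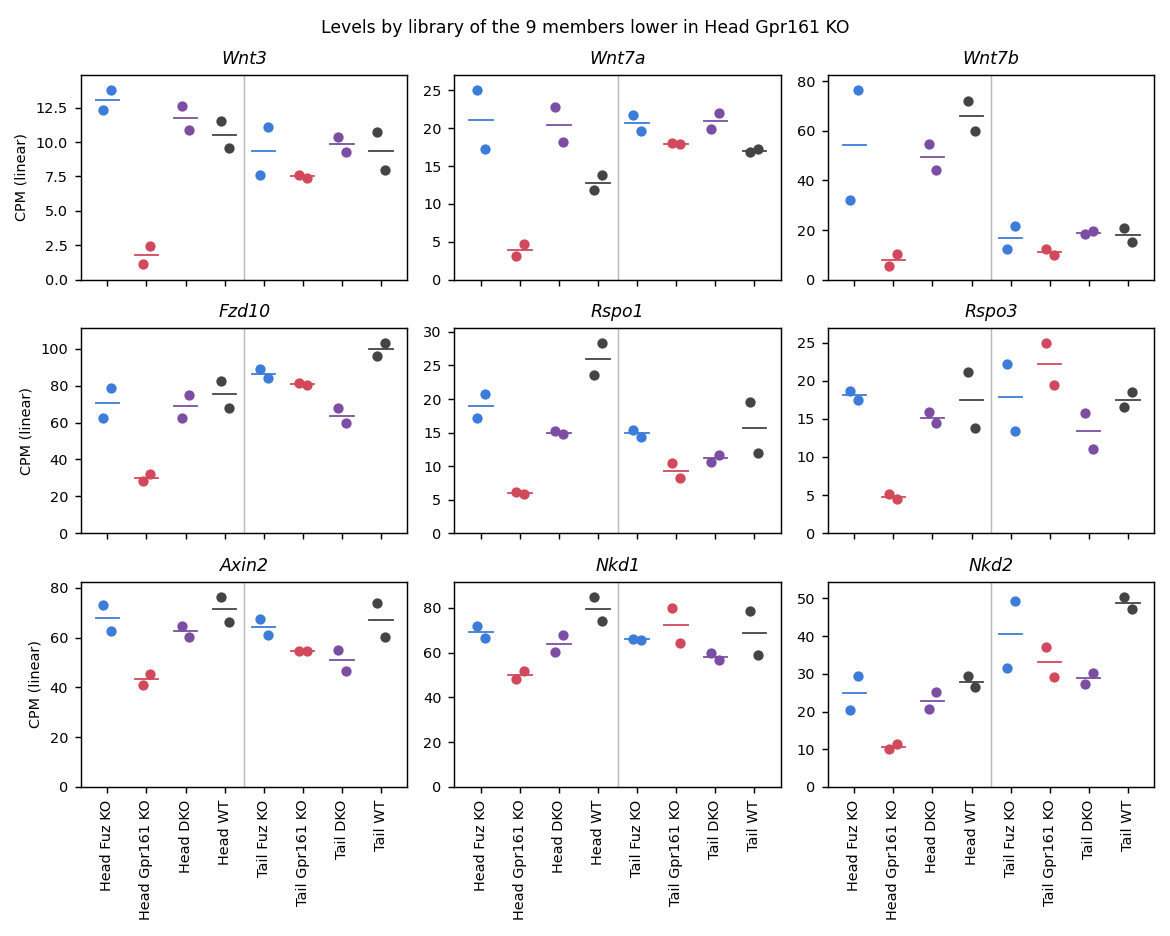
CPM on a linear axis in each of the 16 libraries (points) with the mean of the 2 libraries of a group (line) for the 9 genes that fell in Head Gpr161 KO, with Head groups left of the grey line and Tail groups right of it. The Head Gpr161 KO libraries are the lowest Head libraries in every panel, for example 1.13 and 2.44 CPM for Wnt3, while none of the 9 was called in Tail Gpr161 KO against Tail WT.

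Without each of the 4 Head Gpr161 KO and Head WT libraries in turn, Wnt3, Wnt7a, Fzd10 and Rspo1 kept their call. Wnt7b had adjusted p = 0.059 without Head Gpr161 KO 1 and 0.055 without Head WT 1, Rspo3 0.072 without Head WT 1, and Nkd2 0.0892 without Head Gpr161 KO 1, 0.0851 without Head WT 1 and 0.0573 without Head WT 2. The call of Axin2 (adjusted p of 0.061 to 0.186) and of Nkd1 (0.119 to 0.279) was lost without any 1 of the 4 libraries, so these smaller falls rest on all 4. All 9 kept their direction. The number called among the 46 was lower without Head Gpr161 KO 1 or Head WT 1. Each of those fits leaves 1 library in a group, and no share of all genes is set beside the number. With sex as a term, which only the Gpr161 KO libraries inform, Axin2 had adjusted p = 0.0776 and Nkd1 0.0778. Without both Fuz KO 1 and both DKO 1 libraries 17 of the 46 were called, against 9.86% of all genes: the same 9 lower, together with Wnt2b, Frzb and Lef1 lower and Wnt1, Wnt11, Fzd2, Fzd5 and Fzd7 higher.

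Other cell-type markers moved in the same libraries. A cardiomyocyte list of 12 genes summed to 1890 and 382 CPM in Head Gpr161 KO, against 5.63 and 9.25 CPM in Head WT, with 10 of 12 called higher, and none of the 12 at 0 in Head Gpr161 KO but 3 and 1 at 0 in the Head WT libraries. The 10 dorsal neural tube and roof plate genes summed to 148 and 202 CPM in Head Gpr161 KO, against 547 and 504 CPM in Head WT (5 of 10 lower, none at 0). Not all of that list fell: Lmx1a was at 23.6 and 27.4 CPM, against 21 and 15.8 CPM in Head WT. Gdf7 overlapped, at 2.66 and 4.1 CPM, against 4.44 and 1.95 CPM in Head WT. The 6 floor plate genes summed to 1090 and 1490 CPM in Head Gpr161 KO, against 315 and 361 CPM in Head WT (5 of 6 higher, none at 0). The 7 limb bud genes summed to 101 and 91 CPM in Head Gpr161 KO, against 227 and 223 CPM in Head WT (3 of 7 lower, none at 0 except 1 in Head WT 1). Most of that sum was Prrx1, at 55.4 and 60.5 CPM, against 186 and 170 CPM in Head WT. Fgf10 went the other way, at 17.1 and 14.8 CPM, against 8.52 and 7.67 CPM in Head WT. Hoxd13 was at 0.0493 and 0.0465 CPM, against 0 and 0.141 CPM in Head WT, so the list does not mark limb buds in Head. The 6 endothelial genes summed to 488 and 408 CPM in Head Gpr161 KO, against 271 and 248 CPM in Head WT (3 of 6 higher, none at 0). The 9 surface ectoderm genes summed to 527 and 399 CPM, against 281 and 250 CPM in Head WT (1 of 9 higher, none at 0). The 12 hypoxia and glycolysis genes summed to 5990 and 3810 CPM in Head Gpr161 KO, against 2690 and 2630 CPM in Head WT (0 called, none at 0), and the 8 Head markers to 188 and 121 CPM, against 270 and 256 CPM in Head WT (1 of 8 lower, none at 0). The part of these lists in the fall of the 9 Wnt genes was not tested.

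The promoters of 5 of the fallen genes, 1 or 2 from each role that moved, are printed because these genes fell together. The windows hold 250 bases before and 30 bases after the annotated start, taken from RefSeq (mouse GRCm38.p6), read 5′ to 3′ on the gene's strand, and capitals mark a motif match. They lie at Wnt3 chr11:103773925-103774204 (plus strand), Wnt7a chr6:91411324-91411603 (minus strand), Fzd10 chr5:128600856-128601135 (plus strand), Rspo1 chr4:124986180-124986459 (plus strand) and Axin2 chr11:108920099-108920378 (plus strand).
Wnt3: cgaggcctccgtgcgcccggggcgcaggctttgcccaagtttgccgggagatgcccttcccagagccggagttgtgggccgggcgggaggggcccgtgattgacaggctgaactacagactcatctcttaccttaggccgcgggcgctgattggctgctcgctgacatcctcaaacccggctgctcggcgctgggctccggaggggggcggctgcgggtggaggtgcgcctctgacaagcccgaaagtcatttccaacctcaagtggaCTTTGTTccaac
Wnt7a: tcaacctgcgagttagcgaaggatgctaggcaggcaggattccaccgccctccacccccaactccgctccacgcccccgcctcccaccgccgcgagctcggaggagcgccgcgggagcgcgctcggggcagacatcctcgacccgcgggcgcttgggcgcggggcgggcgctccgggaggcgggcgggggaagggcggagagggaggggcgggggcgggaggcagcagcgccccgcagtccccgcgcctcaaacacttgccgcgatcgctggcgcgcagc
Fzd10: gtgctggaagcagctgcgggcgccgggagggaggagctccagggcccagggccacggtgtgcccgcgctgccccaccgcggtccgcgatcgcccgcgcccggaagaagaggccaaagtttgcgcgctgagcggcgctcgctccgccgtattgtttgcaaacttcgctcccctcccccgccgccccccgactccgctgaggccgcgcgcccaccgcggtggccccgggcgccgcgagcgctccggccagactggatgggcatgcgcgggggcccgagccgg
Rspo1: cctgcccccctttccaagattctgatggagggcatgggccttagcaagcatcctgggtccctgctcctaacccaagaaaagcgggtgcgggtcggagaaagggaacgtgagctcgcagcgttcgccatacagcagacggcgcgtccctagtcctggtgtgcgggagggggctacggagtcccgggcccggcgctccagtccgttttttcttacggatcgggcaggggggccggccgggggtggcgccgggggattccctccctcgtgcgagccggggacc
Axin2: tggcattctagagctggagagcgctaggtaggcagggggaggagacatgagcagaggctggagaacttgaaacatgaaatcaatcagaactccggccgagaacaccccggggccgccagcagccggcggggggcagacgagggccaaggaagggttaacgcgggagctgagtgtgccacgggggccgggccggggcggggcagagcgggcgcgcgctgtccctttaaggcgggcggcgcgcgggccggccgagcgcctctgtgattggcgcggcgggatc

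These windows are CpG-rich, with a GC content of 65.4% for Wnt3, 76.4% for Wnt7a, 76.8% for Fzd10, 67.5% for Rspo1 and 69.3% for Axin2, against a median of 52.5% over 32851 RefSeq promoters of the same length. They hold 22 to 41 CpG dinucleotides each, against a median of 6. Fallen genes whose window is not printed had less, with 57.5% and 6 CpG for Nkd1 and 61.1% and 21 CpG for Nkd2. Genes of the 46 that did not fall held both kinds, such as Wnt8b (48.2%, 5 CpG) and Wnt3a (86.4%, 44 CpG). A high GC content was thus not particular to the fallen genes. Both strands were searched for the TCF/LEF core CTTTGAT, which 3.56% of all promoters hold, its variant CTTTGTT (5.54%) and the GLI sequence TGGGTGGTC (0.24%), each chosen as a common form of its factor's site. CTTTGAT and CTTTGTT cannot match at the same position. Of the 9 fallen genes 7 had a promoter in the table, and 1 of the 7, Wnt3, held a match, a CTTTGTT whose first base is base 19 after the start. Among the 34 of the 46 genes with a promoter (42 entries), CTTTGAT was found for Wnt5b and Wnt11, CTTTGTT for Wnt3, Fzd7 and Dkk1, and the GLI sequence for none. No match says only that these letters are not in this window.

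**Figure D2:**
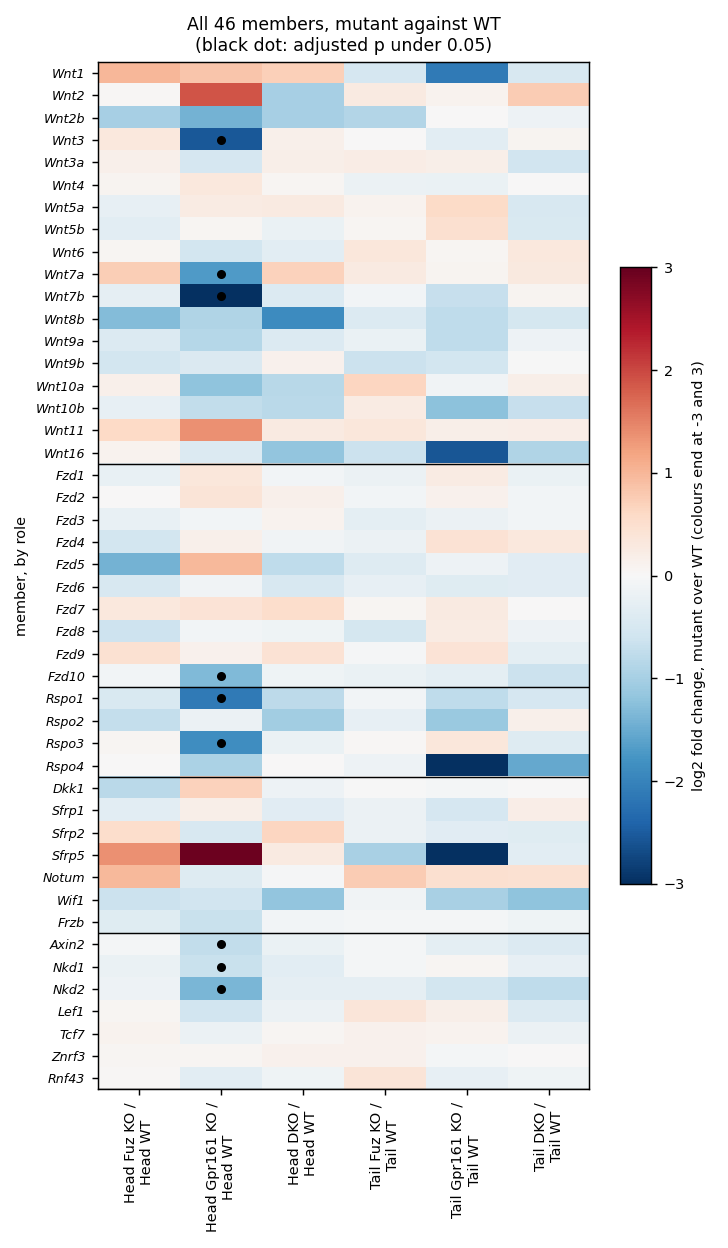
Log2 fold change of each mutant over WT of the same part for all 46 genes, ordered by role (rows) and by comparison (columns), with colours ending at -3 and 3 and a black dot where the adjusted p was under 0.05. The 9 dots all stand in the Head Gpr161 KO column, from Wnt7b (-3.08) to Nkd1 (-0.67).

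The other ligands in Head Gpr161 KO gave values that did not pass edgeR's test. Wnt11, which acts mainly outside the beta-catenin branch, was at 4.75 and 2.84 CPM in Head Gpr161 KO, against 1.57 and 1.36 CPM in Head WT (1.37 ± 0.37, adjusted p = 0.0823). Wnt2b was at 3.3 and 3.21 CPM in Head Gpr161 KO, against 8.43 and 8.92 CPM in Head WT (-1.41 ± 0.39, adjusted p = 0.0975). These groups did not overlap for either gene, and both were called by DESeq2 but not by edgeR. Wnt1, a dorsal midline ligand, was at 12.5 and 13 CPM in Head Gpr161 KO, against 7.42 and 6.76 CPM in Head WT (0.84, not called), while its dorsal midline companion Wnt3a was at 6.16 and 8.98 CPM, against 12.2 and 9.48 CPM in Head WT (-0.51, not called). Among antagonists, Dkk1, which blocks the Lrp5 and Lrp6 co-receptors, was at 16.5 ± 2.86 CPM in Head Gpr161 KO and 10.2 ± 0.455 CPM in Head WT (SD, n = 2 each; 0.69 ± 0.24, adjusted p = 0.201). Frzb, a secreted Frizzled-related protein, was at 28.2 and 26.2 CPM in Head Gpr161 KO, against 45.5 and 40.7 CPM in Head WT (-0.66 ± 0.23, adjusted p = 0.21). By edgeR none of the 7 secreted antagonists was called in any mutant against WT, while DESeq2 called 1, Sfrp5, in Tail Gpr161 KO.

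Of the other 57 genes of the pathway, 1 was called in Head Gpr161 KO. Dact1, a Dishevelled-binding regulator, was at 58.3 and 77.8 CPM in Head Gpr161 KO, against 33.7 and 34 CPM in Head WT, and rose by 1.01 ± 0.22 (adjusted p = 0.0316). The called share of this list was 1.75%, near the 2.02% of all genes. None of its 18 cytoplasmic and nuclear transducers, 9 co-receptors and other receptors or 9 other known targets was called.

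Head DKO embryos, which lack both Fuz and Gpr161, were compared with Head Gpr161 KO embryos. In Head DKO relative to Head Gpr161 KO, 8 of the 46 genes were higher (Wnt3, Wnt7a, Wnt7b, Fzd10, Rspo1, Rspo3, Axin2, Nkd2) and 1, Fzd5, was lower. These 9 are 19.6% of the 46, while 4.16% of all genes were called in this comparison, 1.03% higher and 3.13% lower. DESeq2 called 13, 9 higher and 4 lower, against 8.17% of all genes: the same 9, with Sfrp2 (1.13 ± 0.32, adjusted p = 0.00958) higher and Wnt2 (-2.90 ± 0.89, adjusted p = 0.0197), Wnt11 (-1.09 ± 0.37, adjusted p = 0.0376) and Dkk1 (-0.85 ± 0.24, adjusted p = 0.0101) lower. This comparison shares the Head Gpr161 KO libraries with the one above, so a low level there enters both. Wnt2 was low in Head, at 3.55 and 0.698 CPM in Head Gpr161 KO, against 0.236 and 0.331 CPM in Head DKO. Head WT had 0.763 and 0.375 CPM of Wnt2, overlapping Head Gpr161 KO. The log2 differences of Head DKO over Head Gpr161 KO were 2.71 ± 0.33 for Wnt3, 2.66 ± 0.43 for Wnt7b and 2.39 ± 0.24 for Wnt7a (adjusted p = 0.00072, 0.00625 and 0.00014). They were 1.66 ± 0.28 for Rspo3, 1.32 ± 0.23 for Rspo1, 1.19 ± 0.14 for Fzd10, 1.10 ± 0.22 for Nkd2 and 0.54 ± 0.14 for Axin2 (adjusted p = 0.00535, 0.00655, 0.00072, 0.016 and 0.046). The ligands thus had the largest differences and Axin2 the smallest of the 8. Nkd1, at 60.2 and 67.9 CPM in Head DKO, against 48.3 and 51.6 CPM in Head Gpr161 KO, did not pass (0.36 ± 0.15, adjusted p = 0.216).

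Fzd5, a Frizzled known for its part in eye development, ran the other way. It was at 11 and 6.86 CPM in Head DKO, against 36.1 and 23.8 CPM in Head Gpr161 KO (-1.74 ± 0.35, adjusted p = 0.0136), and the groups did not overlap. Head WT had 13.1 and 17.6 CPM, below both Head Gpr161 KO libraries, but the difference of Head Gpr161 KO over Head WT was not called (0.97 ± 0.34, adjusted p = 0.209). Head Fuz KO had the lowest Head values, 5.32 and 6.14 CPM.

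Without each of the 4 libraries of this comparison in turn, Wnt3, Wnt7a and Fzd10 kept their call. Fewer of the 46 were called without Head Gpr161 KO 1 or without Head DKO 1, and no share of all genes is set beside those numbers. Wnt7b had adjusted p = 0.0637 without Head Gpr161 KO 1 and 0.0557 without Head DKO 1, Fzd5 0.121 without Head Gpr161 KO 1 and 0.136 without Head DKO 2, and Rspo3 0.0624 without Head Gpr161 KO 2. Rspo1 had adjusted p = 0.0561 without Head Gpr161 KO 1, 0.0667 without Head Gpr161 KO 2 and 0.0547 without Head DKO 1. Nkd2 (0.0544 to 0.133) and Axin2 (0.127 to 0.291) were lost without any 1 of the 4, and with sex as a term (0.07 and 0.103). The fit without both Fuz KO 1 and both DKO 1 libraries holds 1 Head DKO library, and in it the 9 genes kept their direction. The cardiomyocyte list summed to 21.7 and 6.3 CPM in Head DKO, against 1890 and 382 CPM in Head Gpr161 KO (10 of 12 lower). The dorsal neural tube and roof plate list summed to 470 and 470 CPM in Head DKO, against 148 and 202 CPM in Head Gpr161 KO (5 of 10 higher). Lmx1a of that list went the other way, at 9.26 and 14.5 CPM, against 23.6 and 27.4 CPM in Head Gpr161 KO. The floor plate list summed to 268 and 219 CPM in Head DKO, against 1090 and 1490 CPM in Head Gpr161 KO (5 of 6 lower). The endothelial list summed to 278 and 262 CPM in Head DKO, against 488 and 408 CPM in Head Gpr161 KO (3 of 6 lower), and the limb bud list to 226 and 279 CPM, against 101 and 91 CPM in Head Gpr161 KO (2 of 7 higher). Prrx1 again made up most of the limb bud sums, and Fgf10 went the other way. Of the Head markers and of the tail bud list 1 gene each was higher in Head DKO. Their part in these differences was not tested. Of the other 57 pathway genes 4 were called (7.02%). The R-spondin receptor and Wnt target Lgr5, at 9 and 8.92 CPM in Head DKO, against 2.73 and 2.51 CPM in Head Gpr161 KO, was higher by 1.77 ± 0.43 (adjusted p = 0.0379). Apcdd1, a membrane inhibitor, was higher by 0.71 ± 0.18 (adjusted p = 0.0422), and Dact1 (-1.37 ± 0.22, adjusted p = 0.00388) and the beta-catenin cofactor Bcl9l (-0.68 ± 0.15, adjusted p = 0.0226) were lower.

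**Figure D3:**
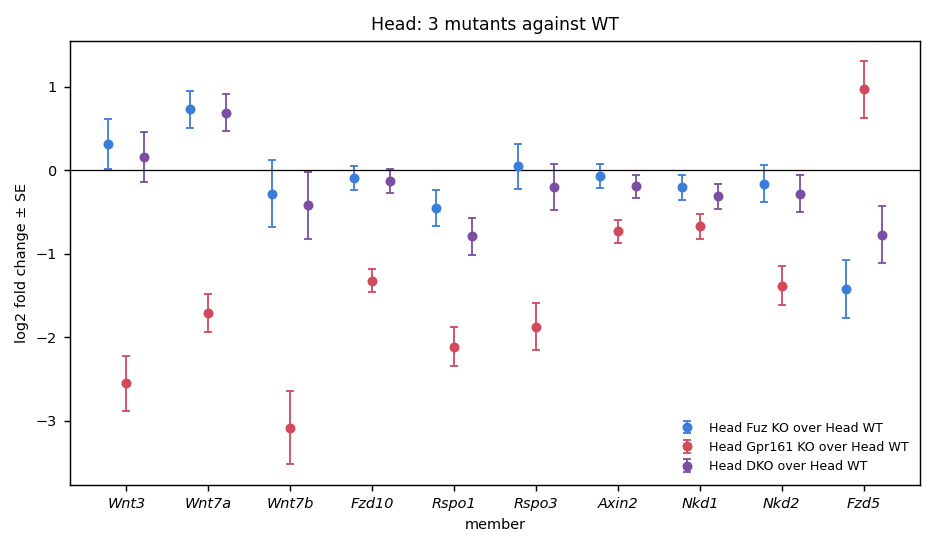
Log2 fold change ± SE (edgeR) of Head Fuz KO, Head Gpr161 KO and Head DKO over Head WT for the 9 fallen genes and Fzd5. Head Gpr161 KO lies below 0 for all 9, from -3.08 for Wnt7b to -0.67 for Nkd1, while Head Fuz KO and Head DKO lie between -0.79 and 0.73 for these 9. Fzd5 is above 0 only in Head Gpr161 KO among the 3 mutants.

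Against Head WT, Head DKO embryos had no gene of the 46 called by edgeR, where 0.0329% of all genes were called. At an unadjusted p under 0.05 there were 7 (1 higher, 6 lower), against 4.33% of all genes, and DESeq2 called 1, Wnt8b, against 0.263%. Wnt8b, a ligand of the dorsomedial forebrain, was at 8.32 and 4.59 CPM in Head DKO, against 20.7 and 26.9 CPM in Head WT (-1.88 ± 0.54, adjusted p = 0.935 by edgeR), and the groups did not overlap. Rspo1 was at 15.2 and 14.8 CPM in Head DKO, against 23.6 and 28.3 CPM in Head WT (-0.79 ± 0.22, adjusted p = 0.923). Wif1, which binds Wnt ligands outside the cell, was at 0.801 and 0.71 CPM in Head DKO, against 1.66 and 1.78 CPM in Head WT (-1.18 ± 0.34, adjusted p = 0.924). None of these passed the test across all genes.

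In Head Fuz KO none of the 46 genes was called by edgeR, where 0.047% of all genes were called. An unadjusted p under 0.05 was reached by 9 (3 higher, 6 lower), against 8.17% of all genes, and DESeq2 called 1, Fzd5, against 0.216%. Fzd5 was at 5.32 and 6.14 CPM in Head Fuz KO, against 13.1 and 17.6 CPM in Head WT (-1.42 ± 0.35, adjusted p = 0.6 by edgeR and 0.0224 by DESeq2). Dkk1 averaged 5.81 ± 1.27 CPM in Head Fuz KO and 10.2 ± 0.455 CPM in Head WT (SD, n = 2 each; -0.81 ± 0.24, adjusted p = 0.6). Neither overlapped with Head WT. The 2 Head Fuz KO libraries differed for several genes: Wnt1 was at 20.3 and 8.16 CPM, Wnt7b at 32.2 and 76.6 CPM, Fzd8 at 17.2 and 39.2 CPM and Notum at 6.26 and 2.52 CPM, with the first of each from the library with the high hypoxia list. With either Head Fuz KO library left out, the other is alone in its group, so the number called then rests on 1 library. That number moved with the library left out, and no share of all genes is set beside it.

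Head DKO against Head Fuz KO gave 0 of 46 by edgeR (0.0282% of all genes called). With an unadjusted p under 0.05 there were 4, against 2.89% of all genes, and DESeq2 gave 0, against 0.0564%. Wnt5a, a ligand of limb and facial outgrowth that acts mainly outside the beta-catenin branch, was at 77.1 and 72 CPM in Head DKO, against 40.8 and 62.2 CPM in Head Fuz KO (0.53 ± 0.16, adjusted p = 1). Without Head Fuz KO 2 some of the 46 were called, all higher. That fit holds 1 Head Fuz KO library, the one with the high hypoxia list, and no share of all genes is set beside it.

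In Tail embryos loss of Gpr161 gave no call among the 46 genes by edgeR, where 0.305% of all genes were called. The genes with an unadjusted p under 0.05 numbered 15 (3 higher, 12 lower), against 6.98% of all genes. DESeq2 called 4, all lower (Wnt1, Wnt16, Rspo4, Sfrp5), against 1.47%. Wnt1 averaged 2.05 ± 0.557 CPM in Tail Gpr161 KO and 8.98 ± 2.12 CPM in Tail WT (SD, n = 2 each; -2.13 ± 0.44, adjusted p = 0.0746 by edgeR). Wnt16 was at 4.15 and 3.31 CPM in Tail Gpr161 KO, against 23.8 and 20.1 CPM in Tail WT (-2.56 ± 0.65, adjusted p = 0.208). Rspo4, the R-spondin of nail beds, was at 0.332 and 1.19 CPM in Tail Gpr161 KO, against 9.91 and 5.33 CPM in Tail WT (-3.33 ± 0.75, adjusted p = 0.121). Sfrp5, a secreted Frizzled-related protein, was at 0.19 and 0.181 CPM in Tail Gpr161 KO, against 1.15 and 2.84 CPM in Tail WT (-3.41 ± 0.98, adjusted p = 0.288). For all 4 the Tail Gpr161 KO libraries lay below both Tail WT libraries, which their call by DESeq2 made likely.

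The dorsal neural tube and roof plate list was lower in Tail Gpr161 KO too, at 152 and 155 CPM, against 383 and 326 CPM in Tail WT (4 of 10 lower, 1 at 0 in each Tail Gpr161 KO library), and the cardiomyocyte list was at 10.1 and 9.04 CPM, against 32.6 and 62.1 CPM in Tail WT (0 of 12 called). The floor plate list was at 394 and 391 CPM in Tail Gpr161 KO, against 181 and 234 CPM in Tail WT (1 of 6 higher), and the tail bud list at 251 and 109 CPM, against 61.8 and 89.1 CPM in Tail WT (0 of 8 called). Their part in these values was not tested. Of the other 57 pathway genes, Draxin, a secreted antagonist and axon guidance factor, was at 10.2 and 11.7 CPM in Tail Gpr161 KO, against 28.1 and 33.1 CPM in Tail WT, and fell (-1.48 ± 0.27, adjusted p = 0.0412). The 57 had 1.75% called, against 0.305% of all genes.

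The 9 genes that fell in Head Gpr161 KO were set beside their Tail values. Wnt3 was at 7.58 and 7.41 CPM in Tail Gpr161 KO, against 10.7 and 7.94 CPM in Tail WT (-0.31). Wnt7a was at 18 and 17.9 CPM, against 16.9 and 17.2 CPM in Tail WT (0.08), Wnt7b at 12.3 and 9.79 CPM, against 20.7 and 15.3 CPM (-0.70), and Fzd10 at 81.4 and 80.6 CPM, against 96.4 and 103 CPM (-0.30). Rspo1 was at 10.4 and 8.19 CPM in Tail Gpr161 KO, against 19.5 and 12 CPM in Tail WT (-0.76), and Rspo3 at 24.9 and 19.4 CPM, against 16.5 and 18.5 CPM (0.34). Axin2 differed by -0.30, Nkd1 by 0.07 and Nkd2 by -0.56. None of these Tail values was called.

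The difference of the Gpr161 KO effect between Tail and Head was then tested itself. It gave no call among the 46 by edgeR, where 0.094% of all genes were called, 18 at an unadjusted p under 0.05, against 5.26% of all genes, and 8 by DESeq2, against 1.05% (Wnt1, Wnt3, Wnt7a, Wnt7b, Fzd10, Rspo1, Rspo3, Sfrp5). If library numbers pair the Head and Tail parts, which was assumed, genotype and number can form a block. With it edgeR called 8 of the 46, against 1.02% of all genes. With the block the log2 effect in Tail minus that in Head was 2.31 ± 0.33 for Wnt3, 1.80 ± 0.25 for Wnt7a, 2.17 ± 0.29 for Rspo3, 1.37 ± 0.29 for Rspo1 and 1.02 ± 0.19 for Fzd10 (adjusted p = 0.00482, 0.00436, 0.00436, 0.0496 and 0.0345). It was 0.74 ± 0.15 for Nkd1 and 0.81 ± 0.17 for Nkd2 (adjusted p = 0.0371 and 0.0447). For these 7 genes the Gpr161 KO difference was more negative in Head than in Tail. Sfrp5 had the opposite sign, -5.97 ± 1.11 (adjusted p = 0.0261): it was at 1.77 and 0.372 CPM in Head Gpr161 KO, against 0.179 and 0.0939 CPM in Head WT, all low levels. Without the block the adjusted p was 0.0755 for Wnt3, 0.0554 for Wnt7a, 0.0763 for Fzd10 and 0.0554 for Rspo3.

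**Figure D4:**
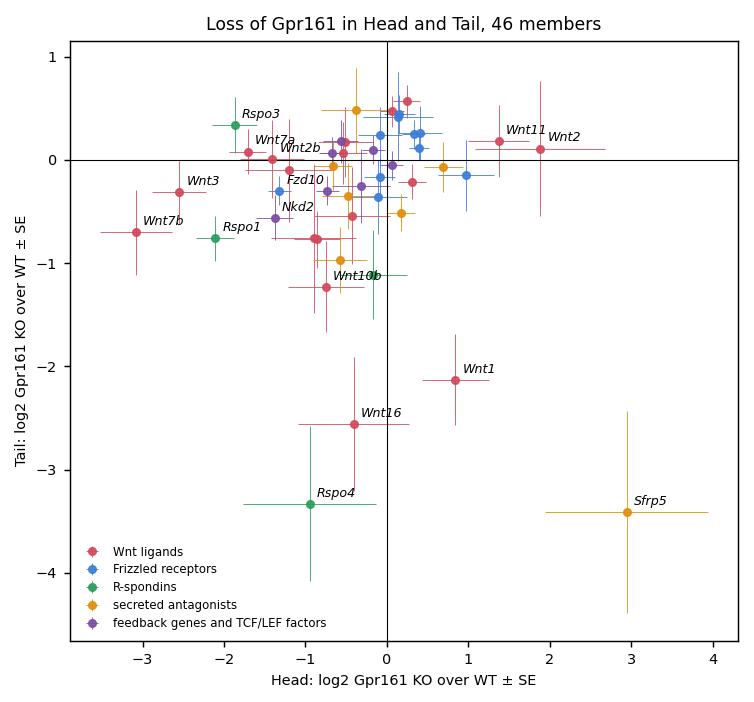
Log2 fold change ± SE of Gpr161 KO over WT in Head (horizontal) and in Tail (vertical) for the 46 genes, coloured by role. Wnt3, Wnt7a, Wnt7b, Rspo1, Rspo3, Fzd10 and Nkd2 lie far left with Tail values between -0.76 and 0.34, while Wnt1, Wnt16, Rspo4 and Sfrp5 lie low, at -2.13 to -3.41 in Tail.

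Tail DKO relative to Tail Gpr161 KO had 2 genes lower, the paired ligands Wnt5a and Wnt5b, and none higher. Wnt5a was at 73.2 and 67.8 CPM in Tail DKO, against 160 and 133 CPM in Tail Gpr161 KO (-1.05 ± 0.16, adjusted p = 0.0146). Wnt5b, its close paralog, was at 12.9 and 13.6 CPM in Tail DKO, against 26 and 24.2 CPM in Tail Gpr161 KO (-0.92 ± 0.15, adjusted p = 0.0218). Tail WT lay between, at 101 and 96.4 CPM for Wnt5a and 18.9 and 17.5 CPM for Wnt5b, and so did Tail Fuz KO, at 110 and 104 CPM for Wnt5a and 20.4 and 17.3 CPM for Wnt5b. The 2 genes are 4.35% of the 46, against 0.522% of all genes called and 0.371% called lower. DESeq2 called 5 of the 46, against 3.05% of all genes, adding Wnt1, Sfrp1 and Sfrp5 as higher.

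Without any 1 of the 4 libraries of this comparison neither gene was called (adjusted p of 0.0652 to 0.209 for Wnt5a and 0.15 to 0.245 for Wnt5b), and both kept their direction. Without 1 library of another group the number called among the 46 moved up or down, and no share of all genes is set beside it. With sex as a term Wnt5b had adjusted p = 0.0645. Without both Fuz KO 1 and both DKO 1 libraries 11 were called, against 8.86% of all genes, with both genes among them. The tail bud list of 8 genes summed to 48.9 and 40.2 CPM in Tail DKO, against 251 and 109 CPM in Tail Gpr161 KO (0 of 8 called, none at 0). The floor plate list summed to 166 and 144 CPM in Tail DKO, against 394 and 391 CPM in Tail Gpr161 KO (2 of 6 lower), and the dorsal neural tube and roof plate list to 295 and 248 CPM, against 152 and 155 CPM in Tail Gpr161 KO (3 of 10 higher). Their part in the values of Wnt5a and Wnt5b was not tested. None of the other 57 pathway genes was called, and 24 of them, 22 lower, had an unadjusted p under 0.05, against 12.2% of all genes.

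Neither other Tail mutant gave a call by edgeR. In Tail DKO against Tail WT 0.0423% of all genes were called. At an unadjusted p under 0.05 there were 8 of the 46, all lower, against 7.19% of all genes, and DESeq2 called 1, Fzd10, against 0.597%. Fzd10 was at 67.7 and 59.6 CPM in Tail DKO, against 96.4 and 103 CPM in Tail WT (-0.65 ± 0.14, adjusted p = 0.265 by edgeR), and Nkd2 at 27.4 and 30.2 CPM, against 50.4 and 47.2 CPM in Tail WT (-0.76 ± 0.22, adjusted p = 0.386), with no overlap for either. In Tail Fuz KO against Tail WT 0.0094% of all genes were called. Of the 46, 1 gene, Wnt2b, had an unadjusted p under 0.05, against 5.21% of all genes, and DESeq2 called 0, against 0.108%. In Tail DKO against Tail Fuz KO edgeR called 0 of the 46 (0.0329% of all genes), 9 had an unadjusted p under 0.05, against 3.69%, and DESeq2 called 0, against 0.103%.

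The effects of Fuz KO and of DKO were also compared between parts. For Fuz KO edgeR called 0 of the 46, as of all genes (0%). Those with an unadjusted p under 0.05 were 2 of the 46 (Wnt1 and Dkk1), against 2.12% of all genes, and DESeq2 called 0, also 0% of all genes. For DKO edgeR called 0 of the 46 and 0% of all genes, 3 had an unadjusted p under 0.05 (Wnt5a, Fzd10, Sfrp2), against 3.25% of all genes, and DESeq2 called 0, against 0.0517%.

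The normal regional pattern gave the widest differences among the 46 genes. In Head WT relative to Tail WT, 12 were called: 4 higher (Wnt7b, Wnt8b, Wnt9a, Fzd5) and 8 lower (Wnt2, Wnt4, Wnt5a, Wnt11, Wnt16, Rspo4, Notum, Tcf7). These are 26.1% of the 46, against 3.77% of all genes called, 2.02% higher and 1.74% lower. Of the 18 ligands, 8 differed, against 1 of 10 Frizzleds. With genotype and number as a block 20 of the 46 were called (7 higher, 13 lower), against 9.43% of all genes, the same 12 and Wnt10b, Fzd3, Fzd7, Rspo1, Rspo2, Sfrp5, Nkd2 and Lef1. DESeq2 called 18 (6 higher, 12 lower), against 6.54% of all genes, the same 12 and Wnt10b, Fzd3, Rspo1, Sfrp5, Wif1 and Nkd2.

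The ligands set the extremes. Wnt8b was at 20.7 and 26.9 CPM in Head WT, against 0.239 and 0.595 CPM in Tail WT (5.82 ± 0.67, adjusted p = 0.000312). Wnt2, a ligand of lung and foregut mesoderm, was at 0.763 and 0.375 CPM in Head WT, against 35.2 and 19.8 CPM in Tail WT (-5.58 ± 0.84, adjusted p = 0.00391). Wnt16 was at 1.3 and 1.27 CPM in Head WT, against 23.8 and 20.1 CPM in Tail WT (-4.09 ± 0.70, adjusted p = 0.00623). Wnt8b was thus near 0 in Tail, and Wnt2 and Wnt16 were low in Head. Wnt11 was at 1.57 and 1.36 CPM in Head WT, against 7.75 and 7.04 CPM in Tail WT (-2.33 ± 0.37, adjusted p = 0.00278). Wnt4, needed for kidney tubule formation, was at 16.8 and 13.7 CPM in Head WT, against 35.7 and 29 CPM in Tail WT (-1.08 ± 0.18, adjusted p = 0.00309). Wnt7b was at 72.1 and 59.9 CPM in Head WT, against 20.7 and 15.3 CPM in Tail WT (1.87 ± 0.41, adjusted p = 0.0283). For none of these did the parts overlap, but all were named for their call between the same libraries.

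The other called genes included Wnt9a, at 13 and 10.9 CPM in Head WT, against 6.01 and 3.43 CPM in Tail WT (1.34 ± 0.28, adjusted p = 0.0159), and Wnt5a, at 60.1 and 62.7 CPM in Head WT, against 101 and 96.4 CPM in Tail WT (-0.68 ± 0.16, adjusted p = 0.0328). Fzd5 was at 13.1 and 17.6 CPM in Head WT, against 4.88 and 6.47 CPM in Tail WT (1.43 ± 0.35, adjusted p = 0.0372). Rspo4 was at 0.449 and 0.657 CPM in Head WT, against 9.91 and 5.33 CPM in Tail WT (-3.78 ± 0.77, adjusted p = 0.0157). Notum, a secreted esterase that strips the lipid from Wnt ligands, was at 1.59 and 2.86 CPM in Head WT, against 9.07 and 5.74 CPM in Tail WT (-1.73 ± 0.42, adjusted p = 0.0396). Tcf7, a TCF/LEF factor and pathway target, was at 25.5 and 24.9 CPM in Head WT, against 59.5 and 44.9 CPM in Tail WT (-1.05 ± 0.14, adjusted p = 0.000806). The parts did not overlap for any of these 6 genes, which were named for their call between the same libraries.

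Of the 12, Wnt8b and Tcf7 kept their call without each of the 4 WT libraries. Fewer of the 46 were called without Head WT 1, Head WT 2 or Tail WT 1, and no share of all genes is set beside those numbers. The adjusted p without 1 of these libraries reached 0.0715 for Wnt2, 0.0643 for Wnt4, 0.0511 for Wnt11, 0.0955 for Wnt16, 0.141 for Wnt9a, 0.2 for Wnt7b and 0.207 for Rspo4. It reached 0.303 for Wnt5a, 0.299 for Fzd5 and 0.362 for Notum, the largest of these values, and no direction changed. With sex as a term Notum had adjusted p = 0.0541, and without both Fuz KO 1 and both DKO 1 libraries Rspo4 had 0.0592.

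Of the other 57 pathway genes 10 were called (17.5%, against 3.77% of all genes). Tcf7l2, another TCF/LEF factor, was at 41.8 and 47.2 CPM in Head WT, against 22.6 and 25.8 CPM in Tail WT, and was higher by 0.88 ± 0.19 (adjusted p = 0.0214). Lower were 6 targets used in axial progenitors (T, Tbx6, Msgn1, Cdx1, Cdx2, Cdx4) and 3 inhibitors (Cer1, Sost, Dact2). T was at 0.471 and 0.493 CPM in Head WT, against 20.8 and 36.1 CPM in Tail WT (-5.88 ± 0.65, adjusted p = 0.000432), and Dact2 was at 4.22 and 3.47 CPM, against 17.5 and 14.1 CPM in Tail WT (-2.04 ± 0.34, adjusted p = 0.0035).

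**Figure D5:**
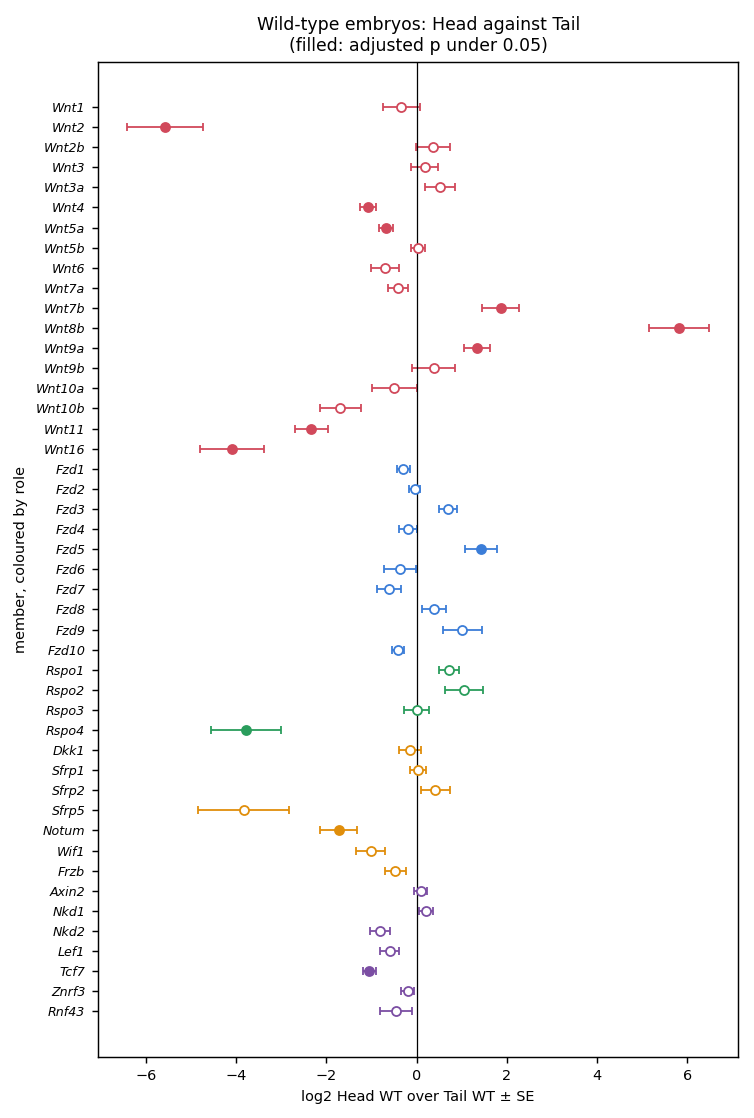
Log2 fold change ± SE of Head WT over Tail WT for each of the 46 genes, ordered and coloured by role, with filled points for an adjusted p under 0.05 without the block. Ligands run from -5.58 (Wnt2) to 5.82 (Wnt8b), while the 10 Frizzleds stay between -0.61 (Fzd7) and 1.43 (Fzd5).

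Levels of different genes can be set side by side per kilobase of exon. In Head WT the highest of the 46 were Fzd2 at 52.0, Sfrp1 at 47.9, Sfrp2 at 35.7, Fzd7 at 24.4 and Fzd10 at 23.2 mean CPM per kilobase. In Tail WT they were Fzd2 at 53.3, Sfrp1 at 46.6, Fzd7 at 37.3, Fzd10 at 30.7 and Sfrp2 at 26.7. Receptors and secreted Frizzled-related antagonists thus led in both parts. The highest ligands in Head WT were Wnt7b at 13.5, Wnt6 at 11.1 and Wnt5a at 7.85 mean CPM per kilobase, and in Tail WT Wnt6 at 18.0, Wnt5a at 12.6 and Wnt2 at 12.2. In Head Gpr161 KO, Wnt7b was at 1.59, below Wnt5a at 9.27, Wnt6 at 7.62 and Wnt5b at 7.28. The lowest in Head WT was Sfrp5 at 0.0719 and the lowest in Tail WT was Wnt8b at 0.120 mean CPM per kilobase.

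By edgeR without the block, 21 of the 46 genes were called in at least 1 of the 14 comparisons and 25 in none. Of these 25, DESeq2 called 9 somewhere (Wnt1, Wnt2b, Wnt10b, Fzd3, Dkk1, Sfrp1, Sfrp2, Sfrp5, Wif1), the blocked edgeR fit 8 (Wnt1, Wnt10b, Fzd3, Fzd7, Rspo2, Dkk1, Sfrp5, Lef1), and neither called the other 13. No share of all genes is set beside these pooled counts, so they only sort the genes for description and are not a result about the 46. The most abundant Frizzleds among the 25 were Fzd2, Fzd3 and Fzd7. Fzd2 was higher in both Head Gpr161 KO libraries than in Head WT, and was called there without both Fuz KO 1 and both DKO 1 libraries. The mutant libraries of Fzd7 varied. Fzd2 was at 248 and 252 CPM in Head Gpr161 KO, 205 and 182 CPM in Head Fuz KO and 227 and 199 CPM in Head DKO, against 194 and 187 CPM in Head WT. Fzd3, a receptor of axon guidance and planar polarity, was at 243 and 234 CPM in Head Gpr161 KO, 180 and 252 CPM in Head Fuz KO and 286 and 254 CPM in Head DKO, against 251 and 255 CPM in Head WT. Fzd7 was at 160 and 134 CPM in Head Gpr161 KO, 173 and 102 CPM in Head Fuz KO and 198 and 120 CPM in Head DKO, against 104 and 117 CPM in Head WT. Over all 16 libraries Fzd1 ran from 53.3 to 102 CPM, Fzd4 from 23.6 to 74.2, Fzd6 from 8.13 to 25.3, Fzd8 from 17.2 to 45.6 and Fzd9 from 2.31 to 17.0 CPM. The lowest Fzd1, Fzd4, Fzd6 and Fzd8 values were all in Head Fuz KO 1, a library with the high hypoxia list.

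Among antagonists, Sfrp1 was at 237 and 235 CPM in Head Gpr161 KO, 171 and 163 CPM in Head Fuz KO and 178 and 152 CPM in Head DKO, against 209 and 211 CPM in Head WT. Sfrp2 was at 40 and 70.5 CPM in Head Gpr161 KO, 123 and 98.1 CPM in Head Fuz KO and 143 and 98.6 CPM in Head DKO, against 69.5 and 84.2 CPM in Head WT. Both are secreted Frizzled-related proteins that bind Wnt ligands. Frzb ran from 23.4 to 63.5 CPM over all 16 libraries, Dkk1 from 4.91 to 18.5, Wif1 from 0.71 to 4.07 and Sfrp5 from 0.0473 to 2.84 CPM. Dkk1 was highest in both Head Gpr161 KO libraries.

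Of the 7 ligands among these 25 genes, Wnt6, made in surface ectoderm, ran from 15.8 to 58.4 CPM, Wnt1 from 1.65 to 20.3, Wnt3a from 3.82 to 13.8, Wnt9b from 2.75 to 11.9, Wnt2b from 2.39 to 8.92, Wnt10b from 0.559 to 5.43 and Wnt10a from 0.284 to 1.98 CPM. Wnt10a was the ligand with the lowest maximum. Wnt1 was lowest in both Tail Gpr161 KO libraries. Rspo2, the R-spondin of limb and lung, ran from 3.22 CPM in Tail Gpr161 KO 1 to 29.4 CPM in Head Gpr161 KO 2. Znrf3 was the steadiest of the 46, at 23.1 to 30.7 CPM over all 16 libraries, while Rnf43 ran from 3.3 to 10.8 and Lef1 from 14.2 to 57.9 CPM. In Tail, Lef1 was at 29.5 and 26.3 CPM in Tail DKO, against 57.9 and 36.8 CPM in Tail Fuz KO (-0.76 ± 0.21, adjusted p = 1) and 41.4 and 32.1 CPM in Tail WT.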

How the data were processed

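RNA was measured in 16 libraries of E10.5 mouse embryo parts, grouped by the sample titles. The deposited files hold raw counts per Ensembl gene, 1 file a library. A Zymo kit based on Trizol, with DNase, gave the RNA, and NEBNext Ultra with poly-A selection gave the libraries, per the labels' protocols. Per the submitters' processing notes, the tools included STAR 2.7.1a and Trimmomatic, featureCounts 1.6.0 and HTSeq, StringTie 2.0.4, and FastQC and Picard 2.20.4, and the build was GRCm39. The role of each tool, the counter included, and the handling of strand were not given in the sources used here, so reads of overlapping antisense genes cannot be told apart. Library totals were 39062489 to 53680317 counts, with a median of 41951619.5.

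Symbols came from a table of Ensembl identifiers, which matched 54723 of 54838. Counts were fitted with edgeR 4.0.16 (R 4.3.3, limma 3.58.1), using TMM, filterByExpr over the 8 groups, 1 coefficient per group and robust quasi-likelihood tests in all 16 libraries at once. Adjusted p-values are Benjamini-Hochberg over the 21284 genes tested in each comparison, and the SE is the log2 fold change divided by the root of F. Mean CPM per kilobase uses the merged exon length of each gene in a GRCm38 annotation. The fit was tested on simulated data. Alternatives were DESeq2 1.42.0, RLE factors, no filter, a replicate block, sex as a term, leaving out each library, and a fit without the 4 Fuz KO 1 and DKO 1 libraries.

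Library numbers were used to pair Head with Tail in the block. Replicate deviations of the parts correlated across genes at 0.437 for Fuz KO, 0.196 for Gpr161 KO, 0.282 for DKO and 0.133 for WT. Different genotypes reached 0.302 (Head Fuz KO with Head DKO) and, across parts, 0.268 (Head DKO with Tail Fuz KO). These values do not establish the pairing for Gpr161 KO and WT, so blocked values only stand beside results between parts. Replicates differed beyond counting noise in every group (chi-square over its degrees of freedom 10.2 to 181). The members, gene lists and alternatives were chosen with earlier results of these data known. The rule for naming genes gives library values for the 9 genes called in a mutant against WT and for a few abundant contrasts. Genes called in other comparisons, and uncalled ones outside that rule, are also given by library and were chosen after their values were seen.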

Additional observations from a re-analysis of the deposited data

How the results depend on the processing

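Of the 46 genes, the number called was compared across settings, and the cause of each change was not tested. Without a filter on low counts edgeR called 2 in Head Fuz KO, 15 in Head Gpr161 KO, 3 in Head DKO, 8 in Tail Gpr161 KO and 3 in Tail DKO, each against WT of its part. The same setting gave 15 in Head DKO against Head Gpr161 KO, 2 in Tail DKO against Tail Fuz KO, 9 in Tail DKO against Tail Gpr161 KO, 20 in Head WT against Tail WT, 10 for the Gpr161 KO effect between parts and 2 for the DKO effect. DESeq2 called 1 in Head Fuz KO, 1 in Head DKO, 4 in Tail Gpr161 KO and 1 in Tail DKO against WT, 5 in Tail DKO against Tail Gpr161 KO and 8 for the Gpr161 KO effect between parts. It called 12 in Head Gpr161 KO against WT, 13 in Head DKO against Head Gpr161 KO and 18 in Head WT against Tail WT, where edgeR called 9, 9 and 12. With the replicate block edgeR called 1 in Tail Gpr161 KO against Tail WT (Wnt1, -2.13 ± 0.38, adjusted p = 0.0241), 20 in Head WT against Tail WT and 8 for the Gpr161 KO effect between parts, and no other count moved by over 1.5 times. Within a part, libraries of the same number correlated at -0.0787 to 0.302, so there the number is only shared. Without both Fuz KO 1 and both DKO 1 libraries there were 17 in Head Gpr161 KO, 3 in Tail Gpr161 KO and 1 in Tail DKO against WT, 14 in Head DKO against Head Gpr161 KO, 11 in Tail DKO against Tail Gpr161 KO and 5 for the Gpr161 KO effect. With sex as a term that effect had 1. Calls over all genes also moved with the setting. For Head Gpr161 KO against Head WT they went from 2.02% to 9.86% without both Fuz KO 1 and both DKO 1 libraries. A count printed here or below without the share of all genes is therefore not a result about the 46.

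Leaving out each of the 16 libraries in turn gave 0 to 11 for Head Fuz KO, 4 to 12 for Head Gpr161 KO and 0 to 2 for Tail Gpr161 KO against WT. It gave 0 to 4 for Head DKO against Head Fuz KO, 4 to 12 for Head DKO against Head Gpr161 KO, 0 to 4 for Tail DKO against Tail Gpr161 KO, 2 to 16 for Head WT against Tail WT and 0 to 4 for the Gpr161 KO effect between parts. The lone library left in a group is assumed to vary like the other groups. Over 32 called gene and comparison pairs and 704 refits, 605 kept direction and call, 99 kept direction only and 0 reversed. With 2 libraries a group, a gene of low count such as Sfrp5 or Wnt10a has little precision.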
